A study of Arabidopsis thaliana with 12 samples.

Results

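CP1 (AT4G36880, also listed as RDL1) encodes a papain-like cysteine protease and was followed across the 4 genotypes of an Arabidopsis seedling series. It is 1 of 13350 genes that could be named for a probe set, and was read from the 1 probe set whose annotation gives CP1 as its single gene symbol. CP1 was picked because, among named genes, it had the most negative interaction of the sco3 and phyb mutations, so its levels in the 4 genotypes are described and that interaction is not tested. The gene lies on chromosome 4 of TAIR10.1, from 17374454 to 17376279, a span of 1826 bases. The arrays were Affymetrix ATH1 arrays hybridised with RNA of seedlings that were 4 days old, raised on agar medium with 16 h of light and 8 h of darkness. The groups were the double mutant sco3phyb, the single mutant phyb, the single mutant sco3 and the control line Col-0, with 3 arrays each, labelled biological replicates. The labels name no allele of either gene. According to the title, the study asked how the pathways of SCO3 and PHYB act together on development and on chloroplast formation.

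Papain-like cysteine proteases are made as inactive precursors whose inhibitory propeptide is removed in the vacuole or another acidic compartment, and the mature enzymes cut proteins with a catalytic cysteine. In plants they take part in the breakdown of stored protein in young seedlings, in senescence, in developmental cell death and in defence. Cystatins and the serpin SERPIN1 are known to inhibit them. Vacuolar processing enzymes, which belong to the separate legumain family of cysteine proteases, activate other vacuolar proteins by cleavage. PHYB codes for phytochrome B, through which plants sense red light. SCO3 (SNOWY COTYLEDON 3) is required for normal chloroplast development in cotyledons.

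CP1 had its lowest signal in the double mutant and its highest in the phyb single mutant. On the 3 sco3phyb arrays the log2 signal was 4.39, 4.75 and 5.12. On the phyb arrays it was 8.30, 8.85 and 8.71. On the sco3 arrays it was 7.59, 7.33 and 7.86, against 5.67, 5.41 and 8.17 on the Col-0 arrays. All 3 sco3phyb values lay below every other array, the nearest Col-0 array being 0.29 higher. The phyb values lay above every sco3 value, by at least 0.44. The Col-0 values were split, with replicates 1 and 2 just above the double mutant and replicate 3 above all sco3 arrays and just below phyb. The order of the means was phyb with 8.62 ± 0.29, sco3 with 7.59 ± 0.26, Col-0 with 6.42 ± 1.53 and sco3phyb with 4.75 ± 0.37 (log2 signal, SD, n = 3). The arrays of Col-0 and sco3 overlapped only through Col-0 replicate 3, since Col-0 replicates 1 and 2 lay below every sco3 array. The difference between these 2 groups was not tested.

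**Figure D1:**
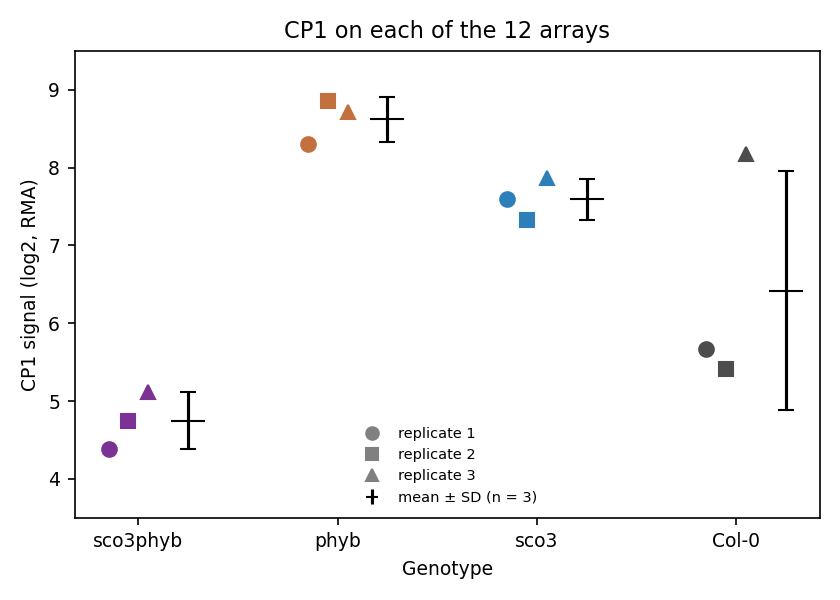
CP1 log2 signal (vertical axis) on each array, by genotype (horizontal axis), with 1 symbol per replicate and the mean ± SD of 3 arrays in black. The sco3phyb arrays sit between 4.39 and 5.12, below every other array, and Col-0 replicate 3 at 8.17 stands apart from the other two Col-0 arrays.

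Col-0 replicate 3 stood apart from the other Col-0 arrays, and not for CP1 alone. Its CP1 signal was 2.64 log2 units, or 6.22-fold, above the mean of 5.54 of Col-0 replicates 1 and 2. Among all 22746 probe sets, 759 were more than 1 log2 unit higher and 277 more than 1 unit lower on that array than on the mean of the other two Col-0 arrays. On each of the other 11 arrays between 8 and 249 probe sets stood that far from their group. The mean correlation of Col-0 replicate 3 with its group was 0.978, while both other Col-0 arrays had 0.986 and the arrays of the mutants 0.991 to 0.995. Results for CP1 are therefore given with and without it.

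The mean CP1 signal of each single mutant was above that of Col-0, while that of the double mutant was below it. In phyb the signal stood 2.21 ± 0.53 above Col-0 on the log2 scale, a 4.61-fold difference, and in sco3 it stood 1.18 ± 0.53 above Col-0, a 2.26-fold difference (moderated standard error, n = 3 per genotype). Without Col-0 replicate 3 these differences were 3.08 ± 0.22 and 2.06 ± 0.22. No p-value is given for them, since they are components of the interaction on which CP1 was picked. The addition of a second mutation went the other way: sco3phyb stood 3.87 ± 0.53 below phyb and 2.84 ± 0.53 below sco3, which is 14.6-fold and 7.16-fold lower. Neither of these differences uses a Col-0 array, so both were the same without Col-0 replicate 3, with a standard error of 0.20 each.

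The interaction sets the effect of sco3 in phyb plants against its effect in Col-0 plants, and for CP1 it was -5.05 ± 0.75 on the log2 scale. If the single mutant differences had added up on the log2 scale, the double mutant would have stood 3.38 above Col-0, at a signal of 9.80. It stood 1.66 ± 0.53 below Col-0 instead, a 3.17-fold lower signal, so the double mutant was opposite in direction to both single mutants. Without Col-0 replicate 3 the interaction was -5.93 ± 0.30, with the added single mutant differences at 5.14 and the double mutant at -0.78 ± 0.22, or 1.72-fold lower.

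With 3 equally weighted arrays per genotype, a pair of differences carry weights that are orthogonal to those of the interaction. The choice of CP1 then does not fix them, and they were tested. CP1 fell in sco3phyb against Col-0 by 1.66 on the log2 scale (limma adjusted p = 0.0318). Its adjusted p was 0.106 without sco3phyb replicate 1 and 0.0781 without sco3phyb replicate 2, and between 0.00891 and 0.106 over the 12 fits that each left out 1 array. The call was also lost with trend and robust fitting (0.0621) and when these 2 genotypes were fitted alone (0.111). The size moved to -0.78 without Col-0 replicate 3 (adjusted p = 0.0170) and to -0.94 with array weights (adjusted p = 0.0427). For this difference, fits without a Col-0 or sco3phyb array, or with array weights, lack that balance. Their adjusted p therefore show only how far the call depends on the arrays. Between the single mutants, phyb minus sco3 was 1.03 ± 0.53 (limma adjusted p = 0.142), which was not called although the 3 values of each did not overlap. Its pooled standard error includes the spread of Col-0, and without Col-0 replicate 3 the same difference had a standard error of 0.20 and an adjusted p of 0.00103. Over the 12 fits that left out 1 array that adjusted p lay between 0.00103 and 0.284.

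**Figure D2:**
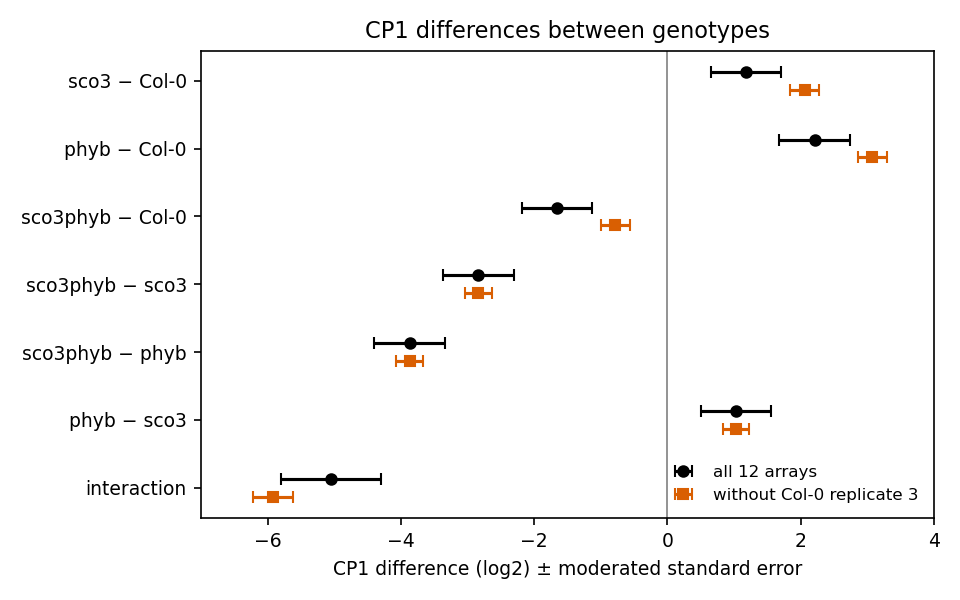
CP1 differences between genotypes (horizontal axis, log2 units, bars are moderated standard errors) from all 12 arrays in black and without Col-0 replicate 3 in orange. The sco3phyb differences from phyb and sco3 stay at -3.87 and -2.84, while sco3phyb minus Col-0 is -1.66 with all arrays and -0.78 without that one.

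The genes next in the order of the interaction show how far CP1 stood from the rest, as a description of the choice. AT2G47780 followed with an interaction of -4.37 and AT5G23830 with -3.58. The vicilin-like seed protein gene PAP85 had -3.36, BCAT4, an aminotransferase of glucosinolate synthesis, had -3.20, and ICL, the isocitrate lyase of the glyoxylate cycle, had -2.98. One probe set without a single gene symbol was more negative than CP1, with -5.46 ± 1.28. Without Col-0 replicate 3 CP1 ranked 1 among all probe sets. Among these genes, AT2G47780, PAP85 and ICL shared with CP1 a higher mean in both single mutants than in Col-0. In BCAT4 the sco3 mean was 0.06 above Col-0, and in AT5G23830 it was below. The mean of BCAT4 was 3.44 in sco3phyb, 6.57 in phyb and 2.91 in sco3, against 2.85 in Col-0, and AT5G23830 had 5.42 in sco3 against 6.84 in Col-0 (log2 signal). BCAT4, ICL and PAP85 lie on chromosome 3 at 45.1, 851 and 1210 kb from SCO3.

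Other papain-like protease genes differed between the genotypes in several patterns. Of a list of 32 loci of this family, written from general knowledge of the family, 19 could be named, CP1 included. In sco3phyb against Col-0, 2 of the other 18 rose and 5 fell, where 16.8% and 12.9% of all probe sets rose and fell (29.7% in all), with a median difference of -0.08 against -0.02 over all probe sets. In phyb against Col-0, 4 rose and 0 fell (2 fell at an unadjusted p under 0.05), where 17.6% and 15.9% of all probe sets rose and fell (33.4% in all), with a median of -0.11 against -0.06. In sco3 against Col-0, 1 rose and 1 fell, where 2.81% and 2.16% of all probe sets did (4.97% in all), with a median of -0.11 against 0.02. By limma, 0 of the 18 had a called interaction, with 1 higher and 2 lower at an unadjusted p under 0.05, where 5.03% of all probe sets were called, 2.65% higher and 2.38% lower. Without Col-0 replicate 3, 2 of the 18 had a lower interaction, where 3.16% of all probe sets did.

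Against the single mutants, sco3phyb had 4 members higher and 3 lower than sco3 (15.9% and 13.4% of all probe sets, 29.3% in all, medians -0.01 and -0.04). It had 0 higher (1 at an unadjusted p under 0.05) and 3 lower than phyb (7.76% and 7.18%, 14.9% in all, medians -0.11 and 0.04). In phyb against sco3, 4 members rose and 2 fell (19.3% and 21% of all probe sets, 40.2% in all, medians 0.09 and -0.08). Centring each array on its median gave 1 higher and 6 lower for sco3phyb against Col-0, 4 and 2 for phyb against Col-0, and 4 and 7 for sco3phyb against sco3. It gave 1 and 3 for sco3phyb against phyb, and 3 and 4 for phyb against sco3. The higher and lower counts of this family therefore depend on the scaling, and over all probe sets centring moved the median of phyb minus Col-0 to -0.20.

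AT2G27420 had the largest differences of the family, in another pattern than CP1. Its log2 signal was 7.46, 7.04 and 7.02 in sco3phyb, 7.20, 6.65 and 6.55 in phyb and 4.37, 3.72 and 4.09 in sco3, against 3.14, 2.76 and 2.14 in Col-0. The arrays of both lines that carry the phyb mutation lay above all others, and those of sco3 lay above Col-0. AT2G27420 rose by 4.50 ± 0.25 in sco3phyb, by 4.12 ± 0.25 in phyb and by 1.38 ± 0.25 in sco3 against Col-0 (limma adjusted p 2.10e-07, 1.75e-07 and 0.0110). It also rose in sco3phyb against sco3, by 3.11 ± 0.25 (adjusted p = 2.83e-06), where CP1 stood 2.84 lower. These calls held in each of the 12 fits that left out 1 array. The interaction of AT2G27420 was -1.01 ± 0.36 and was not called (adjusted p = 0.137).

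AT1G29090 was, like CP1, low in the double mutant. Its log2 signal was 4.24, 4.37 and 4.70 in sco3phyb, 6.77, 6.93 and 6.52 in phyb and 7.32, 7.33 and 8.13 in sco3, against 5.78, 6.48 and 9.36 in Col-0. As with CP1, every sco3phyb array lay below every other array and Col-0 replicate 3 lay above the other two Col-0 arrays. AT1G29090 fell in sco3phyb by 2.77 ± 0.65 against Col-0 and by 3.16 ± 0.65 against sco3 (limma adjusted p = 0.00593 and 0.00279), and both calls held whichever array was left out, although the difference from Col-0 was -1.69 without Col-0 replicate 3. It fell by 2.30 ± 0.65 against phyb (adjusted p = 0.0305), a call lost without any 1 of the 3 phyb or 3 sco3phyb arrays (adjusted p 0.0671 to 0.0963). Its interaction was -2.69 ± 0.92 with all arrays (adjusted p = 0.121) and -3.77 without Col-0 replicate 3 (adjusted p = 7.06e-05). AT1G29080 and AT1G29110, other family genes with neighbouring locus numbers, had no called difference. Both were dim, with genotype means of 2.05 to 2.40 and 2.85 to 3.16 where the lowest array value was 1.44, so this says little.

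AT2G34080 was also lower in the double mutant, with 2.72, 3.02 and 2.65 in sco3phyb, 3.18, 3.51 and 3.44 in phyb and 4.18, 4.66 and 4.98 in sco3, against 3.81, 3.68 and 6.53 in Col-0 (log2 signal). Both lines with the phyb mutation lay below sco3 and Col-0, and Col-0 replicate 3 was again the highest Col-0 array. AT2G34080 fell by 1.87 ± 0.55 in sco3phyb against Col-0 (limma adjusted p = 0.0212, and 0.0605 and 0.0659 without sco3phyb replicates 1 and 3), and the difference was -0.95 without Col-0 replicate 3. It fell by 1.81 ± 0.55 against sco3 (adjusted p = 0.0261, and 0.0516 to 0.0886 without sco3 replicates 2 and 3 or any 1 sco3phyb array). Its interaction of -0.52 ± 0.78 was not called with all arrays (adjusted p = 0.792), and was -1.45 without Col-0 replicate 3 (adjusted p = 0.00694).

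AT3G19400 and AT3G43960 rose in phyb, while their sco3 means were below Col-0. AT3G19400 rose in phyb against Col-0 by 0.66 ± 0.17 and fell in sco3 by 1.02 ± 0.17 (limma adjusted p = 0.00971 and 0.00761). It lies on chromosome 3 at 70.4 kb from SCO3. It was at 6.36 ± 0.30 in sco3phyb, which rose against sco3 by 1.1 ± 0.17 (adjusted p = 4.34e-04). AT3G43960 rose in phyb by 0.90 ± 0.18 (adjusted p = 0.00181) and differed by -0.46 ± 0.18 in sco3, without a call. AT3G54940 rose in phyb by 2.0 ± 0.64 (adjusted p = 0.0284), a call lost without Col-0 replicate 1 or 2 or phyb replicate 2 or 3 (adjusted p 0.0719 to 0.124).

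The remaining calls of the family against Col-0 were in the double mutant and were less stable. AT4G16190 rose by 0.51 ± 0.15 (limma adjusted p = 0.0250, and 0.0703 to 0.0992 without Col-0 replicate 1 or 2 or sco3phyb replicate 2 or 3). AT3G19390, at 72.4 kb from SCO3, fell by 0.88 ± 0.31 (adjusted p = 0.0498), with -0.40 and 0.112 without Col-0 replicate 3, and the call held only when Col-0 replicate 1 or 2 was left out. AT3G45310 fell by 0.59 ± 0.20 (adjusted p = 0.0394, and -0.30 with 0.0925 without Col-0 replicate 3), and was lost in 7 of the 12 fits that left out 1 array. AT4G01610 fell by 0.96 ± 0.33 (adjusted p = 0.0430), and was lost in 8 of them, with adjusted p from 0.0542 to 0.123, and without Col-0 replicate 3 the difference was -0.43.

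**Figure D3:**
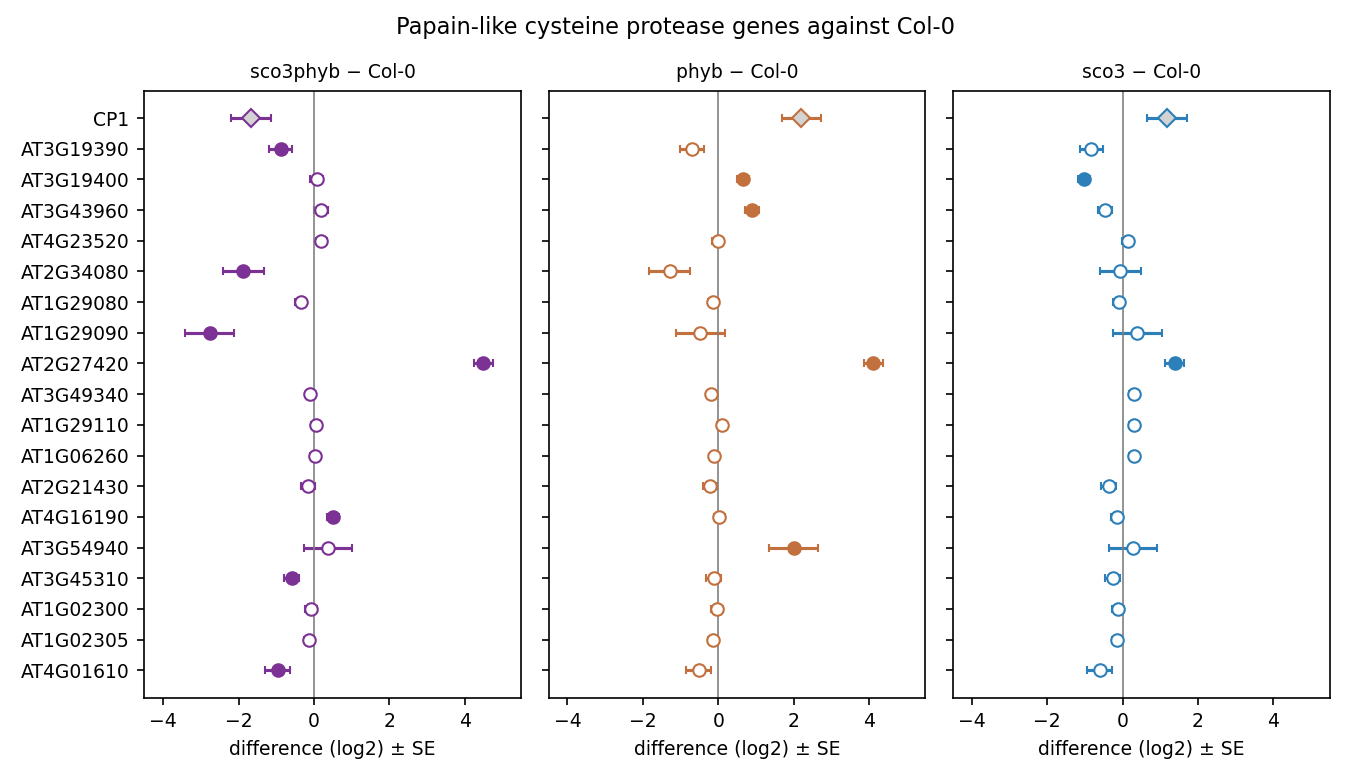
Differences from Col-0 (horizontal axes, log2 units, bars are moderated standard errors) for CP1 and 18 other papain-like cysteine protease genes in sco3phyb, phyb and sco3. Filled circles mark an adjusted p under 0.05, open circles none, and CP1 is a grey diamond since it was picked on these arrays. AT2G27420 lies at 4.50 in sco3phyb, where CP1 lies at -1.66.

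The high CP1 signal of Col-0 replicate 3 was shared by other cysteine protease genes. Of the 18 other papain-like members, 5 were more than 1 log2 unit higher on that array than on the mean of the other Col-0 arrays, and 0 were that much lower, where 3.34% and 1.22% of all probe sets were. Their median gap was 0.42, against -0.03 over all probe sets. The 5 were AT3G19390, AT2G34080, AT1G29090, AT3G54940 and AT4G01610. AT1G29090, at 9.36 against 5.78 and 6.48, had the widest gap of these. Among the 4 vacuolar processing enzyme genes 3 were more than 1 unit higher. BETA-VPE had 8.11 on Col-0 replicate 3, against 5.43 and 5.70 on the other Col-0 arrays, DELTA-VPE had 6.26 against 3.73 and 3.84, and ALPHA-VPE had 5.32 against 3.82 and 4.29. GAMMA-VPE, with 9.52 against 8.95 and 9.26, did not stand that far apart. These genes were counted on that array after the values were seen.

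The root hair markers moved the same way on that array. EXPA7, an expansin of root hairs, had 7.38 on Col-0 replicate 3 against 5.81 and 5.85, and EXPA18 had 7.77 against 5.99 and 6.29. Both of the 2 measured markers, of 4 listed, were thus more than 1 unit higher, where 3.34% of all probe sets were. The stomatal lineage markers were mixed, with gaps to the mean of the other Col-0 arrays of 0.58 for FMA, -0.51 for SPCH and -0.14 for MUTE. The antenna gene LHCB4.3, a marker of green tissue, had 7.27 against 8.16 and 8.26, and LHCB4.2 had 12.17 against 12.25 and 12.30. Both green tissue markers were thus at their lowest Col-0 value there, with a gap of -0.94 for LHCB4.3. The gap of LHCB4.2 was only -0.11, smaller than its -0.24 on sco3phyb replicate 2. The part of these markers in the CP1 signal of Col-0 replicate 3 was not tested. In seedling RNA, fewer cells that express a gene and less of its RNA per cell cannot be told apart.

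**Figure D4:**
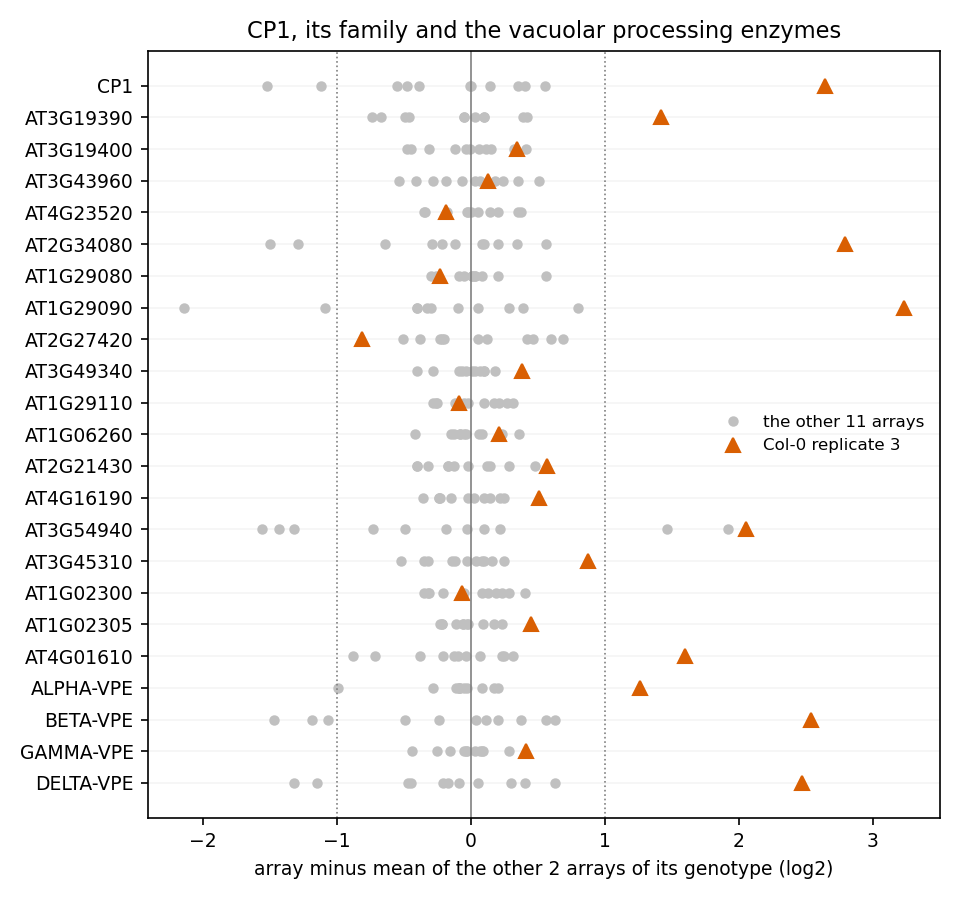
Gap between each array and the mean of the other two arrays of its genotype (horizontal axis, log2 units) for CP1, 18 other papain-like proteases and 4 vacuolar processing enzymes (rows). Grey points are the other 11 arrays and orange triangles are Col-0 replicate 3, which lies at 2.64 for CP1 and beyond the dotted line at 1 for 5 other papain-like genes and 3 vacuolar processing enzymes. A high array also pushes the other two arrays of its genotype to negative gaps.

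Markers of cell types also differed between the genotypes, and not always in the direction of CP1. Both named mesophyll markers of 5 listed fell in sco3phyb against Col-0, sco3 and phyb, where 12.9%, 13.4% and 7.18% of all probe sets fell. Against phyb the call of LHCB4.2 (-0.35, adjusted p = 0.0348) was lost in 5 of the 12 fits that left out 1 array (0.0695 to 0.145) and after centring (0.0505), and that of LHCB4.3 without sco3phyb replicate 2 (0.0521). LHCB4.2 had a log2 signal of 11.27 ± 0.15 in sco3phyb, 11.62 ± 0.06 in phyb and 11.86 ± 0.05 in sco3, against 12.24 ± 0.07 in Col-0, and LHCB4.3 had 6.99 ± 0.25 in sco3phyb, 7.96 ± 0.15 in phyb and 7.91 ± 0.18 in sco3, against 7.90 ± 0.54 in Col-0. Against Col-0 they fell in sco3phyb by 0.97 ± 0.10 and 0.91 ± 0.22 (limma adjusted p = 2.06e-05 and 0.00831). Both root hair markers, of 4 listed, rose in phyb against sco3, where 19.3% of all probe sets rose, EXPA7 by 1.62 ± 0.37 and EXPA18 by 1.68 ± 0.38 (adjusted p = 0.00380 and 0.00392). In sco3phyb against sco3 they differed by 0.41 and 0.71 without a call, where CP1 stood 2.84 lower. Against phyb they differed by -1.22 and -0.96, with only EXPA7 called (adjusted p = 0.0427, lost in 7 of the 12 fits). In sco3 against Col-0 they differed by -1.29 and -1.03, where CP1 stood 1.18 higher. Neither was called there, though both had an unadjusted p under 0.05. Of the stomatal lineage 3 of 6 listed markers could be named, and 1 fell and 0 rose in sco3phyb against Col-0 (also 0 higher at an unadjusted p under 0.05), where 12.9% of all probe sets fell. That gene was FMA, by 0.50 (adjusted p = 0.0444), a call lost in 7 of the 12 fits (0.0511 to 0.147), with -0.31 without Col-0 replicate 3 (0.147). FMA fell further in phyb, where CP1 was highest, by 0.89 ± 0.17 against Col-0 (adjusted p = 0.00162), and by 0.69 without Col-0 replicate 3. Against sco3, phyb had 2 of the 3 stomatal markers lower, where 21% of all probe sets fell. These were FMA by 0.61 and MUTE by 0.35 (adjusted p = 0.0136 and 0.0433), calls lost in 3 and 6 of the 12 fits. MUTE was dim, with a mean of 2.40 in phyb and 2.75 in sco3, where the lowest value on the arrays was 1.44. The call of MUTE was also lost after quantile normalization (0.217). None of the 7 xylem, 2 endodermis and 5 seed markers could be named, and the part of cell composition in the CP1 differences was not tested.

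Among the vacuolar processing enzymes, GAMMA-VPE, the main form in vegetative tissue, was higher wherever phyb was mutated. Its log2 signal was 10.06, 10.15 and 10.07 in sco3phyb, 10.10, 10.32 and 9.96 in phyb and 9.20, 9.35 and 9.36 in sco3, against 9.26, 8.95 and 9.52 in Col-0. No array of phyb or sco3phyb overlapped one of sco3 or Col-0. GAMMA-VPE rose by 0.85 ± 0.14 in sco3phyb and by 0.89 ± 0.14 in phyb against Col-0 (limma adjusted p = 6.13e-04 and 3.91e-04), and its interaction was -0.09 ± 0.20. DELTA-VPE, on chromosome 3 at 251 kb from SCO3, fell in sco3phyb by 1.58 ± 0.50 against Col-0 (adjusted p = 0.0296, and 0.0570 to 0.0856 without any 1 sco3phyb array), and without Col-0 replicate 3 the difference was -0.76. Of the 4 genes, 1 rose and 1 fell in sco3phyb against Col-0, 1 rose in phyb, and 0 were called in sco3 (1 lower at an unadjusted p under 0.05), where 29.7%, 33.4% and 4.97% of all probe sets were called. The median differences from Col-0 were -0.76 in sco3phyb, -0.34 in phyb and -0.46 in sco3 with all arrays, but -0.12, 0.45 and 0.16 without Col-0 replicate 3, so the sign turned in both single mutants. The metacaspase genes of the same list could not be named.

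Of the inhibitors of cysteine proteases, 5 of 10 listed genes could be named. In phyb against Col-0, 2 rose and 0 fell (also 0 at an unadjusted p under 0.05), where 17.6% of all probe sets rose, and in sco3phyb 1 rose and 0 fell (also 0 at an unadjusted p under 0.05), where 16.8% rose. The median in phyb was 0.13 with all arrays. It was 0.54 without Col-0 replicate 3, with 3 of the 5 called higher, where 18.7% of all probe sets were. SERPIN1, a known inhibitor of papain-like proteases in Arabidopsis, had 6.84, 6.99 and 6.99 in sco3phyb, 7.27, 7.34 and 7.53 in phyb and 6.08, 6.13 and 6.18 in sco3, against 5.97, 6.26 and 6.67 in Col-0 (log2 signal). The phyb arrays were the highest and those of sco3phyb came next. SERPIN1 rose by 1.08 ± 0.15 in phyb and by 0.64 ± 0.15 in sco3phyb (limma adjusted p = 1.42e-04 and 0.00639). CYS1, a cystatin, rose in phyb by 0.60 ± 0.12 (adjusted p = 0.00141). In sco3phyb it fell against phyb by 0.60 ± 0.12 (adjusted p = 0.00387), with 8.30 ± 0.06 in sco3phyb, 8.89 ± 0.18 in phyb and 8.21 ± 0.16 in sco3, against 8.29 ± 0.04 in Col-0. CYS1 was thus raised in the phyb single mutant and near the Col-0 level in the double mutant, and its interaction of -0.52 ± 0.16 was not called (adjusted p = 0.0924).

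Among aspartic and serine protease genes, only AT4G04460 and SBT3.5 were called against Col-0 with all arrays, both toward lower signal. Of 8 named aspartic and serine protease genes, 0 rose (1 at an unadjusted p under 0.05) and 2 fell in sco3phyb against Col-0, 25% against 29.7% of all probe sets, with a median of -0.16. Over all probe sets 16.8% rose and 12.9% fell. The count of lower genes was 4 of the 8 without Col-0 replicate 3, where 13.7% of all probe sets fell. AT4G04460 fell by 1.34 ± 0.30 (limma adjusted p = 0.00424) and SBT3.5, a subtilase, fell by 0.45 ± 0.11 (adjusted p = 0.00943). Without Col-0 replicate 3 AT4G04460 differed from Col-0 by -0.94 in sco3phyb and by -0.93 in sco3. By limma 0 were called in phyb (2 lower at an unadjusted p under 0.05, median 0.00), where 33.4% of all probe sets were, and in sco3 1 fell, where 2.16% of all probe sets did, which was AT4G04460, by 1.33 ± 0.30 (adjusted p = 0.0271, and 0.0609 to 0.0890 without any 1 sco3 array). Of 12 genes of protein folding and vacuolar sorting 2 could be named, and the calreticulin gene CRT1b fell in sco3phyb against phyb by 0.51 ± 0.14 (adjusted p = 0.0319, and 0.0751 to 0.143 without phyb replicate 2 or 3 or sco3phyb replicate 1 or 3). The 1 named senescence gene, SAG101, differed by -0.15 ± 0.15 in sco3phyb against Col-0 without a call.

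The genes most like CP1 over the 12 arrays had their lowest mean in the double mutant and, apart from ICL, their highest mean in phyb. They were ranked by Pearson's r of the log2 signal among 1989 named probe sets whose genotype means spanned at least 1 log2 unit. The arrays fall into 4 genotypes, so r describes the pattern and carries no p. Choosing by r favours genes with the pattern of CP1, so their differences and adjusted p only describe them. The 6 highest were AT5G43740 (r = 0.890), AT5G24570 (0.882), AT1G64190 (0.874), ICL (0.870), AT1G12400 (0.867) and AT3G25600 (0.854). ICL, the glyoxylate cycle enzyme by which seedlings use stored oil, had 7.77, 8.21 and 8.46 in sco3phyb, 8.87, 9.94 and 10.07 in phyb and 9.85, 9.76 and 10.24 in sco3, against 7.96, 8.07 and 9.35 in Col-0 (log2 signal). As with CP1, Col-0 replicate 3 was the highest Col-0 array of ICL, and both single mutants had higher means than Col-0. Unlike CP1, ICL had its highest mean in sco3, and its sco3phyb arrays overlapped those of Col-0 (difference -0.31, limma adjusted p = 0.578). For AT5G24570, AT1G64190, AT1G12400 and AT3G25600 the mean of sco3 lay within 0.25 of that of Col-0. The likeness of AT5G24570, AT1G64190 and AT1G12400 thus rests on the double mutant and on phyb. AT3G25600 differed by only 0.17 in phyb against Col-0, without a call (limma adjusted p = 0.483). Its highest array was Col-0 replicate 3, at 7.54. AT1G12400 had 3.81, 3.80 and 4.17 in sco3phyb, 6.14, 6.29 and 6.26 in phyb and 5.55, 5.36 and 5.26 in sco3, against 5.58, 5.45 and 5.88 in Col-0.

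The 4 least like CP1 were AT1G07280 (r = -0.864), AT5G07860 (-0.842), AT1G50290 (-0.834) and AT5G43680 (-0.826). AT1G50290 was high in the double mutant alone, with 8.14, 7.81 and 8.24 in sco3phyb, 5.22, 4.85 and 4.78 in phyb and 5.05, 5.56 and 5.37 in sco3, against 5.51, 5.41 and 5.07 in Col-0 (log2 signal). Without Col-0 replicate 3, only 2 of the 6 most like genes, AT5G43740 and ICL, were again among the first 6, and 0 of the 4 least like were among the last 4. The genes that then led were AT1G66540 (r = 0.938), AT5G43740 (0.931), AT2G47780 (0.925) and AT5G35740 (0.919). AT1G66540 had 2.70, 2.39 and 2.65 in sco3phyb, 4.29, 4.11 and 4.01 in phyb and 3.78, 3.91 and 4.50 in sco3, against 2.92, 3.07 and 2.88 in Col-0. Its Col-0 arrays were close to each other and lay between the double mutant and both single mutants, the order that CP1 has on the other 11 arrays.

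**Figure D5:**
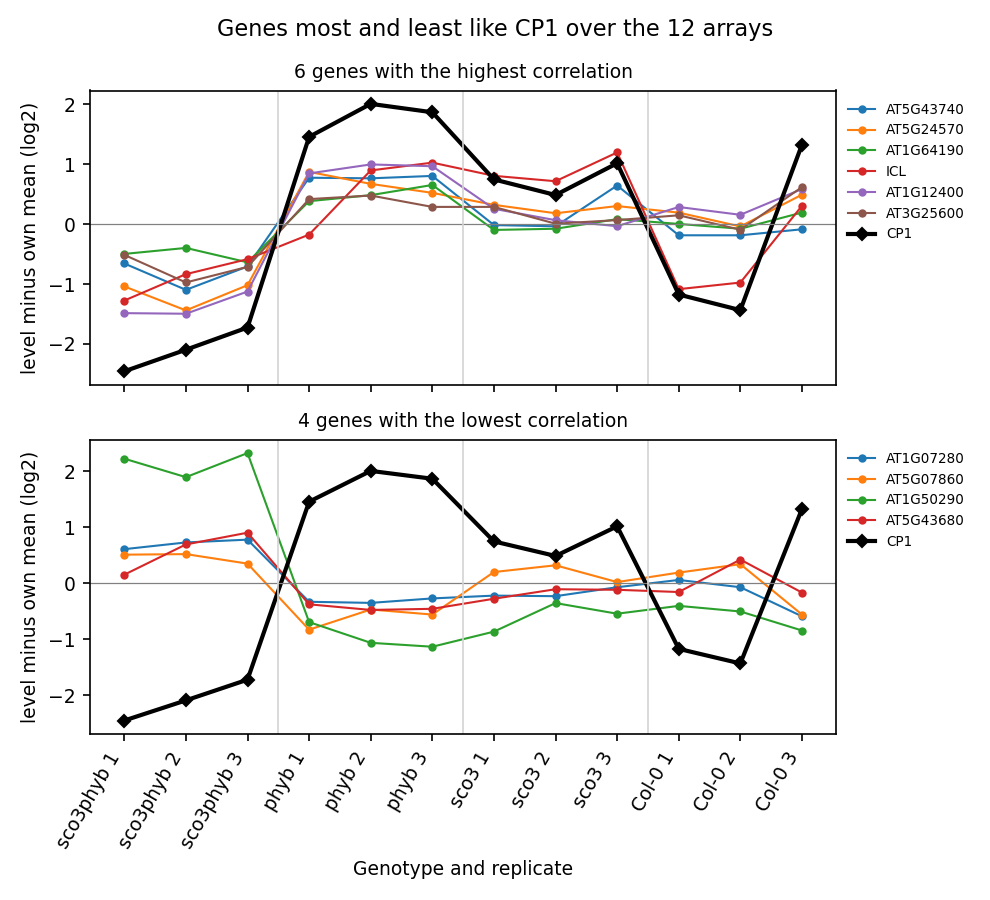
Log2 signal of each gene minus its own mean over the arrays (vertical axes), for 12 arrays ordered by genotype and replicate (horizontal axis), with CP1 in black. The 6 genes of the upper panel have r from 0.854 to 0.890 with CP1 and are low in sco3phyb, and the 4 genes of the lower panel have r from -0.864 to -0.826 and are high there.

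Of the genes around CP1 on chromosome 4, those called for the interaction had the opposite sign to CP1. The 5 nearest named genes on each side lay 12.3 to 69.3 kb away. In sco3phyb against Col-0, 0 of the 10 rose (2 at an unadjusted p under 0.05) and 1 fell, where 29.7% of all probe sets were called. In phyb 1 rose and 4 fell, where 17.6% and 15.9% of all probe sets did. One of these 4, AT4G36790, was lost in 9 of the 12 fits that left out 1 array (adjusted p 0.0611 to 0.144). By limma 0 were called in sco3, and by unadjusted p under 0.05 the counts there were 0 higher and 2 lower. The nearest, AT4G36860, fell in phyb by 0.78 ± 0.16 (adjusted p = 0.00194), where CP1 stood 2.21 above Col-0. It was also the 1 that fell in sco3phyb, by 0.54 ± 0.16 (adjusted p = 0.0192, and 0.0614 and 0.0517 without sco3phyb replicates 2 and 3), and without Col-0 replicate 3 that difference was -0.31. In phyb the 1 that rose was HOS3-1, by 1.0 ± 0.19 (adjusted p = 0.00128). For the interaction 2 of the 10 were higher and 0 lower (also 0 at an unadjusted p under 0.05), where 2.65% and 2.38% of all probe sets were. They were AT4G36970 with 0.81 (adjusted p = 0.0110) and AT4G36790 with 0.88 (adjusted p = 0.0359, and 0.0534 to 0.0887 in 8 of the 12 fits that left out 1 array). SPT, the gene of the transcription factor SPATULA, was at 3.72 ± 0.09 in sco3phyb, 4.04 ± 0.37 in phyb and 3.80 ± 0.12 in sco3, against 4.14 ± 0.56 in Col-0, and was called in no comparison.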

How the data were processed

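Expression was measured on 12 Affymetrix ATH1 arrays, 3 for each of 4 genotypes. The authors deposited log2 signals, named RMA and Partek in the submitters' processing notes. The sources used here give neither version nor settings. Values ran from 1.44 to 13.52, and array medians from 4.53 to 4.74. Precision is limited by how many arrays there are. Of 22810 probe sets, 64 controls were left out and 22746 were tested. Names came from the platform annotation, with 503 probe sets having several symbols and 8730 none, and were matched to a TAIR10.1 gene table for 13436 probe sets.

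A mean per genotype was fitted to the deposited log2 values with limma 3.58.1 in R 4.3.3 (lmFit and eBayes, 8 residual degrees of freedom, two-sided, Benjamini-Hochberg within each contrast over all probe sets), with calls made at an adjusted p under 0.05. The steps were tested on simulated data. The labels say biological replicates without naming separate cultures, so the spread may be partly technical. Genes named were CP1, the named members of the lists, the 6 most and 4 least like CP1 by Pearson's r, the 5 next in the interaction and the 5 nearest on each side. CP1 and the lists were chosen with earlier results of these data known. Alternatives were array weights, trend and robust fitting, median centring, quantile normalization, a filter on dim probe sets, a replicate block, pairwise fits and leaving out each array. The lists and the likeness were recomputed without Col-0 replicate 3 after the data had been seen.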

Additional observations from a re-analysis of the deposited data

Results flagged for a closer look

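CP1 moved in opposite directions with the phyb mutation in the 2 SCO3 backgrounds. Every sco3phyb array lay below every sco3 array, while every phyb array lay above every Col-0 array. The difference of these differences was -5.05 on the log2 scale. It was not tested, since CP1 was picked on it.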

How the results depend on the processing

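No difference of CP1 changed sign under any alternative run. Leaving out each array in turn gave -2.17 to -0.78 for CP1 in sco3phyb minus Col-0, 0.90 to 1.19 in phyb minus sco3 and -5.93 to -4.54 for the interaction. It gave 0.67 to 2.06 for sco3 minus Col-0, 1.70 to 3.08 for phyb minus Col-0, -3.02 to -2.66 for sco3phyb minus sco3 and -4.05 to -3.69 for sco3phyb minus phyb. The calls among the 18 other papain-like genes then numbered 2 to 4 in sco3 minus Col-0, 3 to 5 in phyb minus Col-0, 2 to 6 in sco3phyb minus Col-0, 4 to 9 in sco3phyb minus sco3, 0 to 8 in sco3phyb minus phyb, 4 to 8 in phyb minus sco3 and 0 to 2 for the interaction.

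CP1 in sco3phyb minus Col-0 stayed at -1.66 but was not called with trend and robust fitting (adjusted p = 0.0621) or from those 2 genotypes alone (adjusted p = 0.111). CP1 in phyb minus sco3 was called with array weights (1.15, adjusted p = 0.00866) and from those 2 genotypes alone (1.03, adjusted p = 0.00184). Papain-like calls were 7 in sco3phyb minus phyb and 1 for the interaction with array weights, and 11 in sco3phyb minus sco3 after centring. From the 2 genotypes alone they were 1 in sco3 minus Col-0, 2 in sco3phyb minus Col-0 and 8 in sco3phyb minus phyb. The causes were not tested.

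Same-numbered arrays showed little common deviation over all probe sets (r from -0.27 to 0.15 over 18 pairs, 2 of them over 0.1). The labels do not say whether they share a culture or a batch, and these correlations cannot decide it. With the replicate number as a block, CP1 in sco3phyb minus Col-0 was -1.66 ± 0.43 (limma adjusted p = 0.0148), against a standard error of 0.53 without the block. In that fit 1 papain-like gene had a called interaction.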
